A study of Homo sapiens with 4 samples.

Results

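The genes of MHC class I antigen presentation were followed in the human melanoma line A375 after exposure to octanoate, a saturated medium-chain fatty acid. They were taken by symbol from the table of normalised read counts: HLA-B, HLA-C, HLA-E, HLA-F, B2M, TAP1, TAP2, TAPBP and NLRC5, 9 of the 56832 genes listed there. Wild-type A375 cells in serum-supplemented DMEM received either 1 mM octanoate or isopropanol, the vehicle, for 48 h, and 2 libraries of total RNA were sequenced for each group. The study asked which genes and signatures rise with the treatment. The labels do not say whether the libraries of a group came from separate cultures, so p-values measure only the spread between these libraries, which may be technical. They were made from whole cultures, and fewer cells of a kind cannot be told apart from less RNA per cell.

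MHC class I molecules carry short peptides from inside the cell to its surface, where CD8 T cells read them. The heavy chain (such as HLA-B and HLA-C, and the less variable HLA-E and HLA-F) pairs with beta-2 microglobulin, the product of B2M. Proteasomes cut proteins into peptides, the TAP1-TAP2 transporter moves them into the endoplasmic reticulum, and tapasin, encoded by TAPBP, holds an empty class I molecule at the transporter until a peptide fits. NLRC5 is the transactivator that raises transcription of these genes through a conserved promoter module, and interferons raise them through interferon-stimulated response elements. Loss or silencing of these genes is a known route by which melanomas escape T cells.

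The promoter elements through which these regulators are known to act are shown for 7 of the genes, from RefSeq promoter sequences of build GRCh38.p14. Capitals mark matches, on either strand, to TGACGC (the X2-type core of the class I module), CCAAT (Y-type), GAAA and GAAA with any 2 bases between them (interferon response type), and GGG, any 2 bases, TT, any base, CC (kappaB type), searched in the 250 bases before each start. The 3 heavy chain stretches lie at chr6:31357265-31357294, chr6:31272177-31272206 (both minus strand) and chr6:29723318-29723347 (plus strand).
HLA-B: ggatactcgTGACGCgtccccacttcccac
HLA-C: gaatactcaTGACGCgtccCCAATtcccac
HLA-F: ggatactcataacgcggccccatttctcac
The corresponding interferon response stretches of the light chain and loading genes lie at chr15:44711372-44711401 (plus strand) and, on the minus strand, at chr6:32853812-32853841, chr6:32838775-32838804 and chr6:33314079-33314108.
B2M: aGAAAAGGAAACTGAAAacgGGAAAGTCCC
TAP1: cgcTTTCGATTTCGCTTTCccctaaatggc
TAP2: gggaagcGAAAGCGAAAgctgcccgagccc
TAPBP: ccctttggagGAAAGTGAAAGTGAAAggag
The X2-type core was found before HLA-B, HLA-C and TAP2, and in 7.67% of 35116 promoter windows of this length. The interferon response type was found before B2M, TAP1, TAP2, TAPBP and, at another place in its window, HLA-F, against 3.02% of all windows. HLA-B and HLA-C held no match to these exact letters, which does not show that they lack an interferon response element. The kappaB type was found before HLA-B, B2M, TAP1 and TAPBP, against 5.07% of all windows, and CCAAT before HLA-B, HLA-C, HLA-F, B2M and TAP1, against 32.0%. TAP1 had 2 promoter entries, and its matches lie in the first, while the second window held none of the 4 motifs. In GENCODE 29 the printed HLA-F, TAP1 and TAPBP stretches also fall inside an exon of a longer transcript of the same gene, as do 6 bases of the TAP2 stretch. The printed HLA-F stretch was taken at nearly the same distance before the start as those of HLA-B and HLA-C, and holds none of the 4 motifs. It reads TAACGC where those of HLA-B and HLA-C read TGACGC, and the missing exact match does not show that HLA-F lacks the element. These matches describe the sequence only.

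In GENCODE 29 (GRCh38), 7 of the 9 genes lie in the MHC on chromosome 6. The heavy chain genes are HLA-B at chr6:31269491-31357188 and HLA-C at chr6:31268749-31272130 on the minus strand, and HLA-E at chr6:30489467-30494205 and HLA-F at chr6:29722775-29738528 on the plus strand. TAP1 (chr6:32845209-32853978), TAP2 (chr6:32821833-32838780) and TAPBP (chr6:33299694-33314387) are on the minus strand. B2M (chr15:44711487-44718877) and NLRC5 (chr16:56989485-57083531), both on the plus strand, lie outside the MHC. The HLA-B model overlaps a pseudogene, AL671883.2, on the opposite strand over 542 exon bases, so its count is uncertain. HLA-B and HLA-C also share 35 exon bases on the same strand, 1.15% of the HLA-B and 1.40% of the HLA-C exon bases.

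The recovered read totals ran from 67785956 to 78005035 per library. Among melanocyte and melanoma markers, SOX10 was abundant (34072 to 41363 normalised counts), whereas TYR had 1.93 to 3.93 and MLANA 34.9 to 52.0. Of 7 tested markers of this kind, 2 fell (MITF, the melanocyte master regulator, with a log2 difference of -0.48, and S100B with -1.12) and 1 rose (PMEL, 0.55). The 9 leukocyte markers, cells that themselves carry much class I, summed to 57.9 and 64.9 normalised counts in vehicle and 60.6 and 69.4 in octanoate. MS4A1 was listed at 0 in 3 of the libraries, and none of the 9 was at 0 in all of them. The 7 stromal and endothelial markers summed to 1294 and 1312 in vehicle and to 1249 and 1256 in octanoate, but 2 of them rose (PECAM1, 0.95, and VWF, 0.50) and 2 fell (COL1A1, -0.69, and COL1A2, -0.99, all as log2 differences). Rises and falls among these markers are calls of the limma test described below. In the authors' deposited table VWF (adjusted p 0.286), COL1A2 (0.207) and PMEL (0.224) were not called. The part of the markers in the results was not tested.

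The groups were tested with limma, which shares variance information across genes, on the scale log2(normalised count + 1), and a gene was called at a Benjamini-Hochberg adjusted p under 0.05. Of 20250 genes with a mean of at least 10, 6048 (29.9%) were called, 3271 of them higher (16.2%) and 2777 lower (13.7%). All 9 genes passed that filter. HLA-F and NLRC5 were called higher and TAPBP lower, 3 of 9, which is near the background share. The median log2 difference of the 9 was 0.07, against 0.0050 over all tested genes. It was -0.023 without vehicle 2 and 0.18 without vehicle 1. edgeR on the recovered reads called the same 3 genes (background 32.0% of 20250 genes). DESeq2 on those reads called 1 of the 9 (TAPBP, background 30.3% of 16324 genes). The authors' deposited table also called TAPBP alone (background 12.9% of 33533 genes). That last set includes genes with a mean under 10, so its share cannot be set directly against the others. With 2 libraries a group, 0.333 is the smallest two-sided p that an exact permutation test of a single gene allows.

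B2M, the light chain common to all class I molecules, was the most abundant of the 9. Vehicle gave 41219 and 40389 normalised counts, and octanoate 42420 and 38693. The octanoate libraries thus held both the highest and the lowest value. The log2 difference was -0.01 (SE 0.06, 95% interval -0.14 to 0.12, limma adjusted p 0.922). As a change in level the interval runs from -8.98% to 8.32%. It rests on the variance shared across genes and covers only the spread between these libraries.

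The classical heavy chain genes HLA-B and HLA-C, whose products present peptides to T cells, did not pass the test. HLA-B had 8358 and 7004 normalised counts in vehicle and 8168 and 7904 in octanoate. HLA-C had 8171 and 7549 in vehicle and 8323 and 7768 in octanoate. For both genes the groups overlapped, and vehicle 2 was the lowest library. The log2 difference of HLA-B was 0.07 (95% interval -0.07 to 0.21, limma adjusted p 0.473) and that of HLA-C 0.03 (95% interval -0.09 to 0.16, limma adjusted p 0.723). The HLA-B value depended on the vehicle libraries: it was 0.20 without vehicle 1 (limma adjusted p 0.0469) and -0.06 without vehicle 2.

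HLA-E, which presents signal peptides of other class I chains to the NK cell receptor CD94/NKG2A, had 6504 and 5947 normalised counts in vehicle and 6497 and 6118 in octanoate. Each octanoate value lay between the vehicle values. The log2 difference was 0.02 (95% interval -0.11 to 0.15, limma adjusted p 0.846), smaller in size than that of 94.0% of tested genes. HLA-G, a non-classical heavy chain gene known from trophoblast, had at most 4.81 normalised counts and was not tested.

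HLA-F, a non-classical chain known as a ligand of NK cell receptors, was the 1 of these 4 heavy chain genes that rose. It had 197 and 162 normalised counts in vehicle and 234 and 258 in octanoate, from 167 to 243 reads per library. Both octanoate values were above both vehicle values. The log2 difference was 0.46 (SE 0.13, 95% interval 0.18 to 0.73, limma adjusted p 0.0114), a mean rise of 37.3%. The adjusted p was 0.0131 with edgeR and 0.0701 with DESeq2 on the recovered reads, and 0.107 in the authors' deposited table. Without vehicle 2 the limma log2 difference was 0.31 (adjusted p 0.157), and without octanoate 2 it was 0.39 (adjusted p 0.0896). The HLA-F count is uncertain: in GENCODE 29, 3 genes on the opposite strand, among them HLA-F-AS1, overlap its exons, while the sources used here do not state whether counting used strand.

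**Figure D1:**
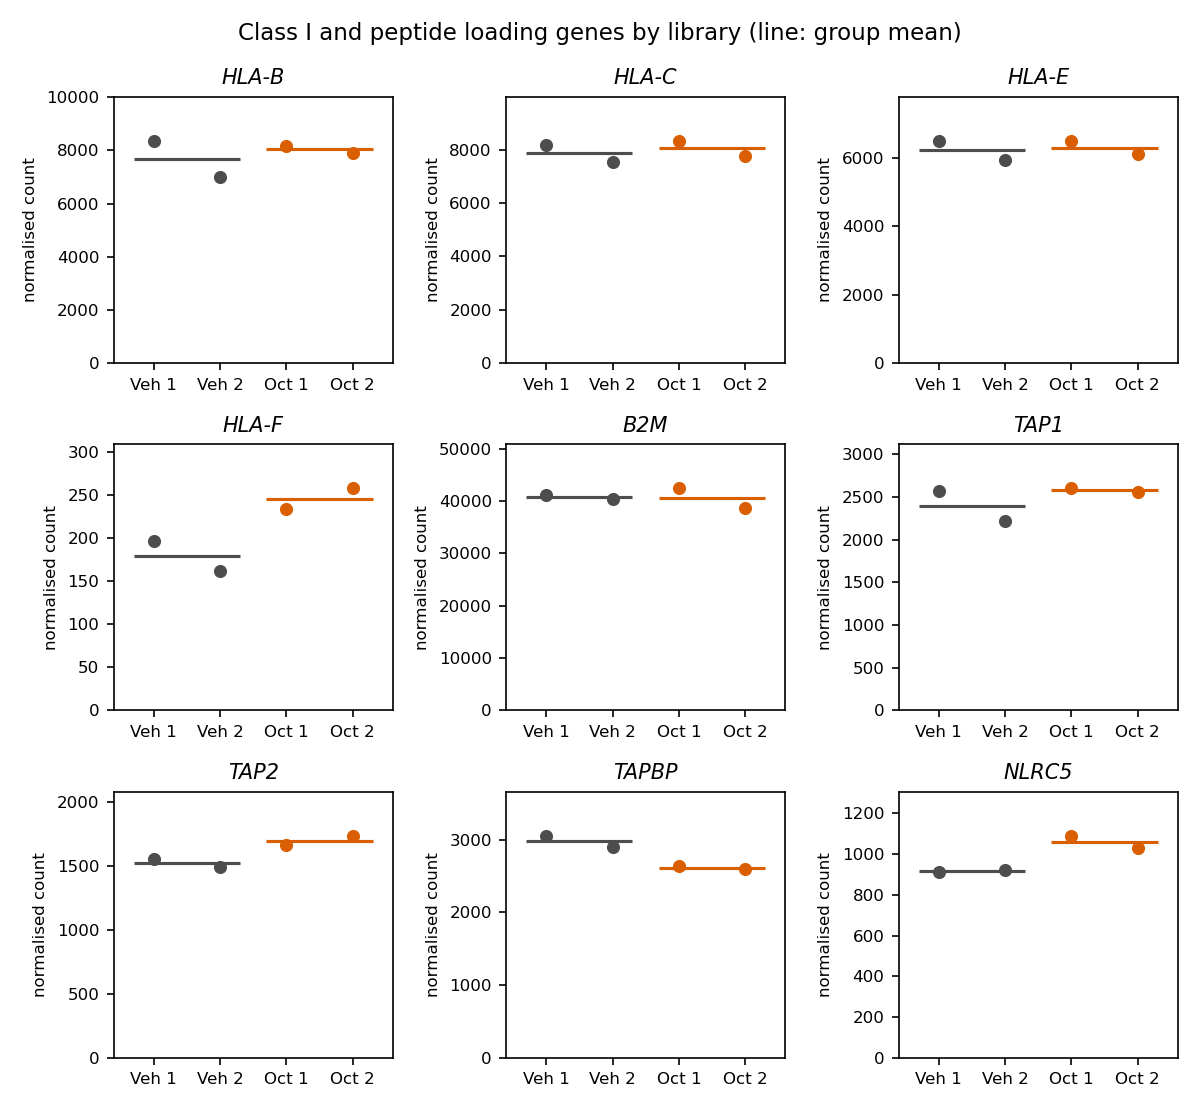
Normalised read count (y axis, from 0) of each of the 9 genes in the 4 libraries (x axis); points are libraries, grey for vehicle and orange for octanoate, and lines are group means of 2 libraries. The groups are separate for HLA-F, TAP2, TAPBP and NLRC5 and overlap for the other 5 genes.

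The peptide transporter subunits showed small positive differences that missed the threshold. TAP1 had 2571 and 2214 normalised counts in vehicle and 2600 and 2563 in octanoate, so that vehicle 2 stood below the other 3 libraries. Its log2 difference was 0.11 (95% interval -0.03 to 0.26, limma adjusted p 0.239), and 0.0060 without vehicle 2. TAP2 had 1553 and 1492 in vehicle and 1659 and 1733 in octanoate, and the groups did not overlap. Its log2 difference was 0.16 (95% interval 0.01 to 0.30, limma adjusted p 0.0927), with an unadjusted p of 0.0331. TAP1 overlaps PSMB8-AS1 on the opposite strand. TAP2 shares 2064 bases with AL669918.1, a gene model on the same strand, so their counts are uncertain.

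TAPBP, which encodes the peptide editor tapasin, was the 1 gene of the 9 that fell. Its normalised counts were 3052 and 2899 in vehicle and 2633 and 2594 in octanoate. Both octanoate libraries were below both vehicle libraries, and the gap between the groups was larger than that within either. The log2 difference was -0.19 (SE 0.06, 95% interval -0.32 to -0.06, limma adjusted p 0.0263), so that its mean level fell by 12.1%. In the authors' deposited table TAPBP had a log2 fold change of -0.19 and an adjusted p of 0.0485. The limma call was lost without vehicle 1 (-0.15, adjusted p 0.190), octanoate 1 (-0.20, 0.0764) or octanoate 2 (-0.18, 0.128), and with TMM scaling (-0.17, 0.0523). TAPBP shares 293 bases with MFN1 at 95.2% identity, so its count is uncertain.

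Ratios within a library do not depend on its scaling. TAPBP over TAP1 was 1.19 and 1.31 in vehicle and 1.01 and 1.01 in octanoate. TAPBP over TAP2 was 1.97 and 1.94 in vehicle and at most 1.59 in octanoate. Both ratios were lower in each octanoate library than in each vehicle library. They are formed from the counts given above and are not separate evidence of a fall in TAPBP. How often ratios of other gene pairs separate the groups was not tested.

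NLRC5, the class I transactivator, had 914 and 924 normalised counts in vehicle and 1090 and 1030 in octanoate. The vehicle libraries differed by little and both octanoate libraries were higher. The log2 difference was 0.20 (SE 0.08, 95% interval 0.05 to 0.36, limma adjusted p 0.0468), a mean rise of 15.2%, just inside the threshold. The adjusted p was 0.0380 with edgeR, 0.112 with DESeq2 on the recovered reads and 0.147 in the authors' deposited table. The call was lost when any 1 library was left out, with log2 differences of 0.20 without vehicle 1 (adjusted p 0.165), 0.21 without vehicle 2 (0.128), 0.16 without octanoate 1 (0.268) and 0.25 without octanoate 2 (0.0708). NLRC5 over HLA-B was 0.109 and 0.132 in vehicle and 0.133 and 0.130 in octanoate.

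**Figure D2:**
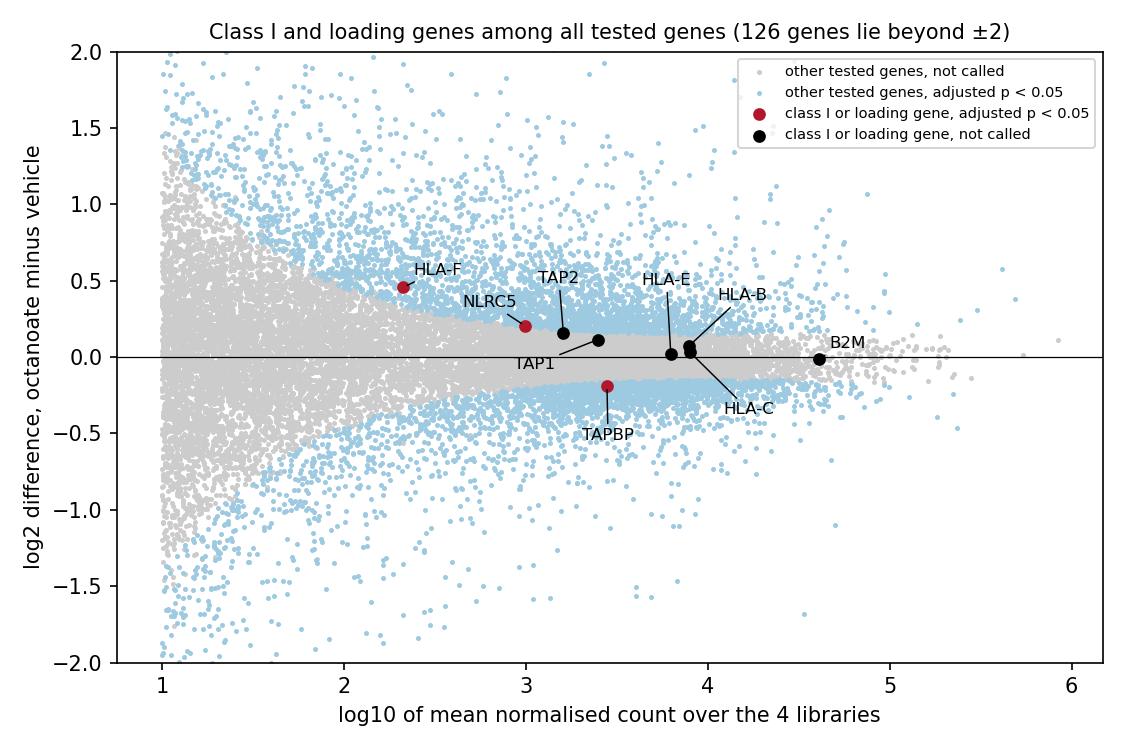
Log2 difference of octanoate minus vehicle (y axis, log2(normalised count + 1) scale) against the log10 mean normalised count over the 4 libraries (x axis) for all 20250 tested genes, of which 126 lie beyond the plotted range. Grey points were not called and blue points had a limma adjusted p under 0.05; of the 9 labelled genes, the 3 red ones (HLA-F, NLRC5, TAPBP) were called and the 6 black ones were not.

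Groups that did not overlap were seen for 4 of the 9 genes (HLA-F, TAP2, TAPBP and NLRC5), against 63.1% of all tested genes. In 3 of them octanoate was higher (background 32.6%) and in 1 lower (background 30.5%). Of the 9003 genes whose mean was 1000 or more, a range that leaves out HLA-F and NLRC5, 38.1% were called. At least 47.6% of tested genes had a larger absolute log2 difference than each of the 9 genes other than HLA-F, for which the share was 20.8%. Of the 9, 6 had their lowest value in vehicle 2, where 31.9% of all tested genes had theirs, and none had its highest value there. Between the vehicle libraries, HLA-B differed by 0.25, HLA-F by 0.28 and TAP1 by 0.22 on the log2 scale, each vehicle 1 minus vehicle 2. For HLA-B and TAP1 that gap was larger than the difference between the groups.

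**Figure D3:**
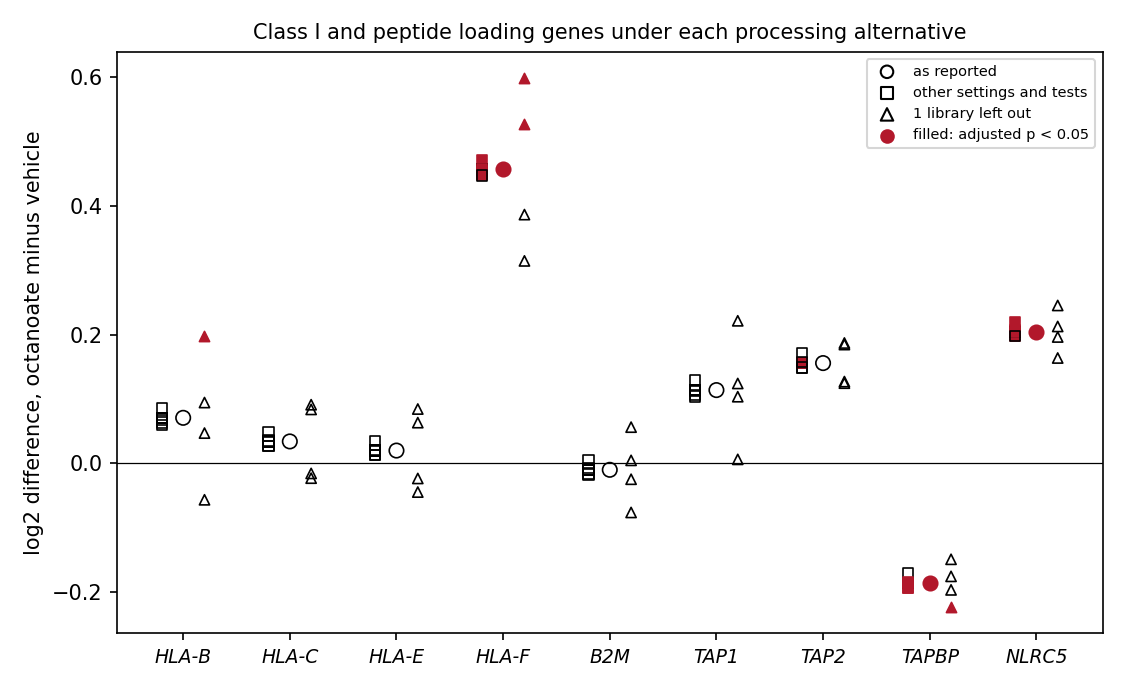
Log2 difference of octanoate minus vehicle (y axis) for each of the 9 genes (x axis) as reported (circles), under other settings and tests (squares, which can cover each other) and with 1 library left out (triangles); filled red symbols had an adjusted p under 0.05. HLA-F, NLRC5, TAP1 and TAP2 stayed above 0 and TAPBP below 0 in every fit shown, whereas HLA-B, HLA-C, HLA-E and B2M crossed 0.

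Levels can be compared between genes only per length. Per kilobase of the union of annotated GENCODE 29 exons, the mean level over the 4 libraries was 6692 normalised counts for B2M, 3172 for HLA-C, 2576 for HLA-B, 2106 for HLA-E, 553 for TAPBP, 518 for TAP1, 252 for TAP2, 79.9 for NLRC5 and 49.0 for HLA-F. On this scale the ranges over libraries overlapped for TAPBP with TAP1, so those neighbours were not separated. Per kilobase of the principal transcript the order was the same and the overlapping neighbours were HLA-C with HLA-B and NLRC5 with HLA-F. The level of B2M was 2.11 times that of HLA-C by the first length and 4.61 times by the second. TAP1, TAP2 and TAPBP transcripts were thus scarcer than those of HLA-B, HLA-C and HLA-E on both scales, and HLA-F was scarcer than any of them. This does not hold for every loading gene: CALR, reported below, had 26701 by the first length and 38080 by the second.

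**Figure D4:**
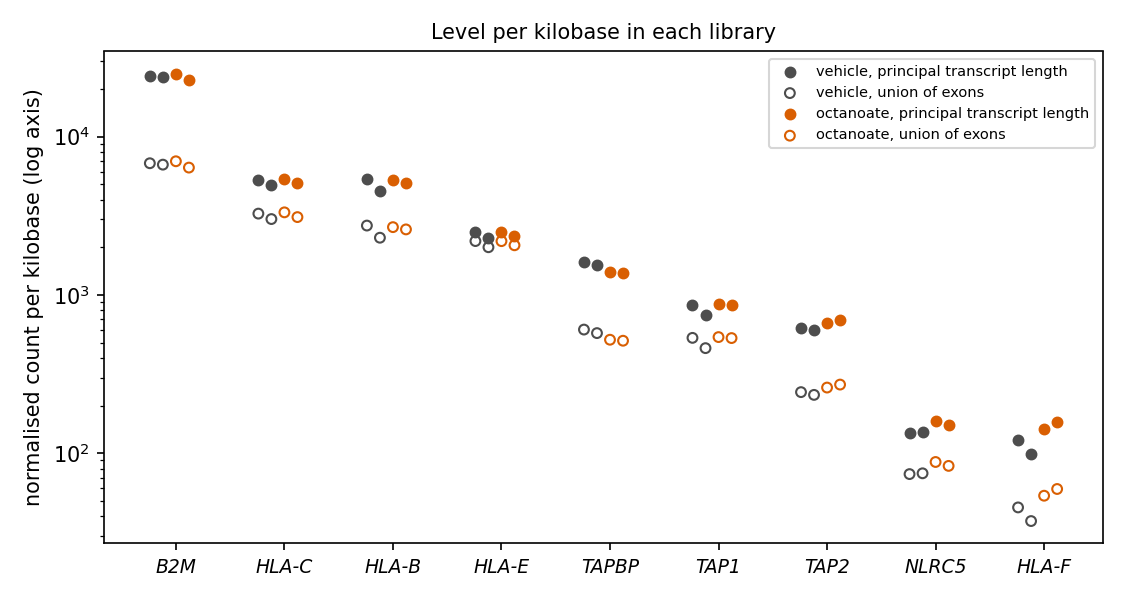
Normalised count per kilobase (y axis, log scale) of each gene in each library, in order of level; filled points use the principal transcript length and open points the union of exons, grey for vehicle and orange for octanoate. B2M is highest in every library by either length, and HLA-F has the lowest mean by either length, although by principal transcript its range overlaps that of NLRC5.

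The wider pathway was read from 10 further gene lists, of which 72 genes were tested. Of these, 2 were called higher (2.78%, background 16.2%) and 19 lower (26.4%, background 13.7%), 29.2% in all against a background of 29.9%. Their median log2 difference was -0.08, against 0.0050 over all tested genes. Among tested genes with a mean of 1000 or more, the share called was 38.1%. Shares by direction were not computed for that range, so the list counts by direction are not matched to the background by level. The calls in each direction, by role, were as follows, and the same background shares apply to every list.

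Transcripts of both proteasome activator subunits tested and of 1 interferon-induced catalytic subunit were lower. Of 5 immunoproteasome and PA28 genes, 3 fell and none rose, with a median log2 difference of -0.23. PSME1 and PSME2 encode the PA28 activator that opens the proteasome core. PSME1 had 6067 and 5581 normalised counts in vehicle and 5015 and 4787 in octanoate, a log2 difference of -0.25 (standard error 0.06, adjusted p 0.00296 by limma). PSME2 had 6352 and 5850 in vehicle and 5281 and 5087 in octanoate, a log2 difference of -0.23 (standard error 0.06, adjusted p 0.00442 by limma). For both genes every octanoate value was below every vehicle value. PSMB10, a catalytic subunit of the immunoproteasome, had 227 and 243 in vehicle and 164 and 189 in octanoate, a log2 difference of -0.42 (standard error 0.13, adjusted p 0.0181 by limma). In the authors' deposited table PSMB10 was not called (adjusted p 0.144). The other inducible subunits, which are encoded beside TAP1 and TAP2, were not called: PSMB8 had a log2 difference of -0.15 (95% interval -0.28 to -0.02, limma adjusted p 0.0855) and PSMB9 one of -0.06 (95% interval -0.21 to 0.08, limma adjusted p 0.544). The constitutive subunits that they replace, PSMB5, PSMB6 and PSMB7, had log2 differences of -0.09, -0.02 and 0.08, and 0 of 3 were called (limma, with 0 at an unadjusted p under 0.05, and 0 with edgeR or DESeq2). Without vehicle 1 the adjusted p was 0.0721 for PSME1 and 0.0916 for PSME2. That of PSMB10, which shares 644 exon bases with AC040162.1, was 0.126 without vehicle 2 and 0.159 without octanoate 1. PSME2 shares 720 bases with AC116347.1, and PSMB8 overlaps PSMB8-AS1 on the opposite strand over 618 exon bases. The counts of PSME2 and PSMB8 are therefore uncertain too.

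Peptide trimming genes were mostly not called. ERAP1, which trims peptides in the endoplasmic reticulum to class I length, had a log2 difference of 0.07 (95% interval -0.06 to 0.19). Of 8 genes in this list 2 fell and none rose, with a median of -0.08. LAP3, the cytosolic leucine aminopeptidase, had 7976 and 7352 normalised counts in vehicle and 6437 and 6251 in octanoate, a log2 difference of -0.27 (standard error 0.06, adjusted p 0.00103 by limma). NPEPPS, the puromycin-sensitive aminopeptidase, had a log2 difference of -0.15 (limma adjusted p 0.0487), and its adjusted p ran from 0.106 to 0.278 when vehicle 1, vehicle 2, octanoate 1 or octanoate 2 was left out. Both counts are uncertain: LAP3 shares 858 bases with LAP3P2 and NPEPPS 1466 bases with AC244154.1.

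In the other loading and quality control genes, 1 of 6 fell and none rose, with a median of -0.08. CALR, which encodes the chaperone calreticulin that brings class I molecules to tapasin, had 83452 and 77931 normalised counts in vehicle and 65456 and 63025 in octanoate, a log2 difference of -0.33 (standard error 0.06, adjusted p 0.000268 by limma). It overlaps AC092069.1 on the opposite strand over 270 exon bases, so its count is uncertain. TAPBP and CALR, whose products meet in the loading complex, were both lower in each octanoate library than in each vehicle library. This is not particular to the pair: it held for 5 of the 6 genes of this list, CALR among them. It also held for 30.5% of all tested genes. PDIA3, the ERp57 disulphide isomerase of that complex, had a log2 difference of -0.08 (95% interval -0.20 to 0.04), and CANX, which encodes calnexin, one of -0.05 (95% interval -0.17 to 0.08). TAPBPL, which encodes the tapasin-related editor TAPBPR, had a log2 difference of -0.25 (95% interval -0.47 to -0.03, limma adjusted p 0.0864).

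Among 5 tested genes for other chains, most of which pair with beta-2 microglobulin, CD1D alone was called. CD1D, which presents lipids to NKT cells, had 585 and 546 normalised counts in vehicle and 291 and 335 in octanoate, a log2 difference of -0.86 (standard error 0.10, adjusted p 6.08e-07 by limma). MR1, HFE, FCGRT and AZGP1 had log2 differences of 0.03, -0.12, 0.44 and 0.02, and FCGRT rested on 17.7 to 30.8 normalised counts.

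The promoter factors of class I genes showed 2 called genes of 14, both lower, with a median of -0.05. RFX5, RFXAP and RFXANK, the RFX subunits that bind the X box, had log2 differences of 0.06, 0.12 and -0.08 and were not called. USF1, an E-box factor, had a log2 difference of -0.26 (standard error 0.06, adjusted p 0.00175 by limma), and IRF2, an interferon regulatory factor, one of -0.19 (standard error 0.06, adjusted p 0.0248 by limma). IRF1, the interferon-induced activator of TAP1 and PSMB9, had 573 and 564 normalised counts in vehicle and 506 and 506 in octanoate, a log2 difference of -0.17 (95% interval -0.35 to 0.02, limma adjusted p 0.173). NFKB1 and RELA had 0.00 and -0.03. In the authors' deposited table IRF2 was not called (adjusted p 0.0512). The IRF2 call was lost without vehicle 1, octanoate 1 or octanoate 2 (limma adjusted p 0.188, 0.0606 and 0.138).

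Of 11 genes of interferon-gamma signalling, 1 rose and 3 fell, with a median of -0.09. SOCS3, a feedback inhibitor of JAK signalling, had 1994 and 1697 in vehicle and 1225 and 1074 in octanoate, a log2 difference of -0.68 (standard error 0.08, adjusted p 6.17e-07 by limma). JAK2, a receptor kinase, had a log2 difference of 0.21 (limma adjusted p 0.0396). IRF9, which rested on 38 to 75 reads and shares 1838 bases with AL136295.5, had one of -0.64 (limma adjusted p 0.0413). In the authors' deposited table neither JAK2 (adjusted p 0.124) nor IRF9 (0.251) was called. The JAK2 call was lost whichever library was left out (limma adjusted p 0.0602 to 0.245), and that of IRF9 without vehicle 1, octanoate 1 or octanoate 2 (0.306, 0.107 and 0.0940).

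Of 9 tested genes of the type I interferon receptor and of nucleic acid sensing, 4 fell and none rose, with a median of -0.16. Over all tested genes 13.7% were called lower and 16.2% higher. The authors' deposited table called 3 of these 9. TMEM173, which encodes the adaptor STING, had 2880 and 2603 normalised counts in vehicle and 2323 and 2337 in octanoate, a log2 difference of -0.23 (standard error 0.07, adjusted p 0.00916 by limma). IFNAR1 and MAVS, a receptor chain and the adaptor of RNA sensors, both fell in the main comparison by less, with log2 differences of -0.16 (limma adjusted p 0.0351) and -0.15 (limma adjusted p 0.0403). Without vehicle 1 the adjusted p of TMEM173 was 0.167. Leaving out vehicle 1, vehicle 2, octanoate 1 or octanoate 2 gave 0.0893 to 0.198 for IFNAR1 and 0.0763 to 0.298 for MAVS.

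The largest change in these lists was among genes for surface turnover of class I. MARCH4 encodes a membrane ubiquitin ligase that, when overexpressed, removes class I molecules from the cell surface. It had 166 and 181 normalised counts in vehicle and 456 and 479 in octanoate, from 169 to 474 reads per library. MARCH4 overlaps AC012513.1 on the opposite strand over 85 exon bases, 1.91% of its exons, so its count is uncertain. The log2 difference was 1.43 (SE 0.11, 95% interval 1.19 to 1.66, limma adjusted p 6.80e-10), a mean rise of 169%, and 1.88% of tested genes had a larger absolute difference. MARCH9, a ligase of the same family with the same known action, had 1746 and 1468 in vehicle and 1692 and 1587 in octanoate, a log2 difference of 0.03 (95% interval -0.13 to 0.19). In this list 1 of 10 genes rose and 3 fell, with a median of -0.06. WWP2 and TMEM127, parts of a known route of class I turnover with SUSD6, had log2 differences of -0.36 (standard error 0.06, adjusted p 2.75e-05 by limma) and -0.22 (standard error 0.06, adjusted p 0.00969 by limma), while that of SUSD6 was 0.04 (95% interval -0.12 to 0.21). The TMEM127 call was lost without vehicle 1 (adjusted p 0.106) or octanoate 2 (0.0740).

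**Figure D5:**
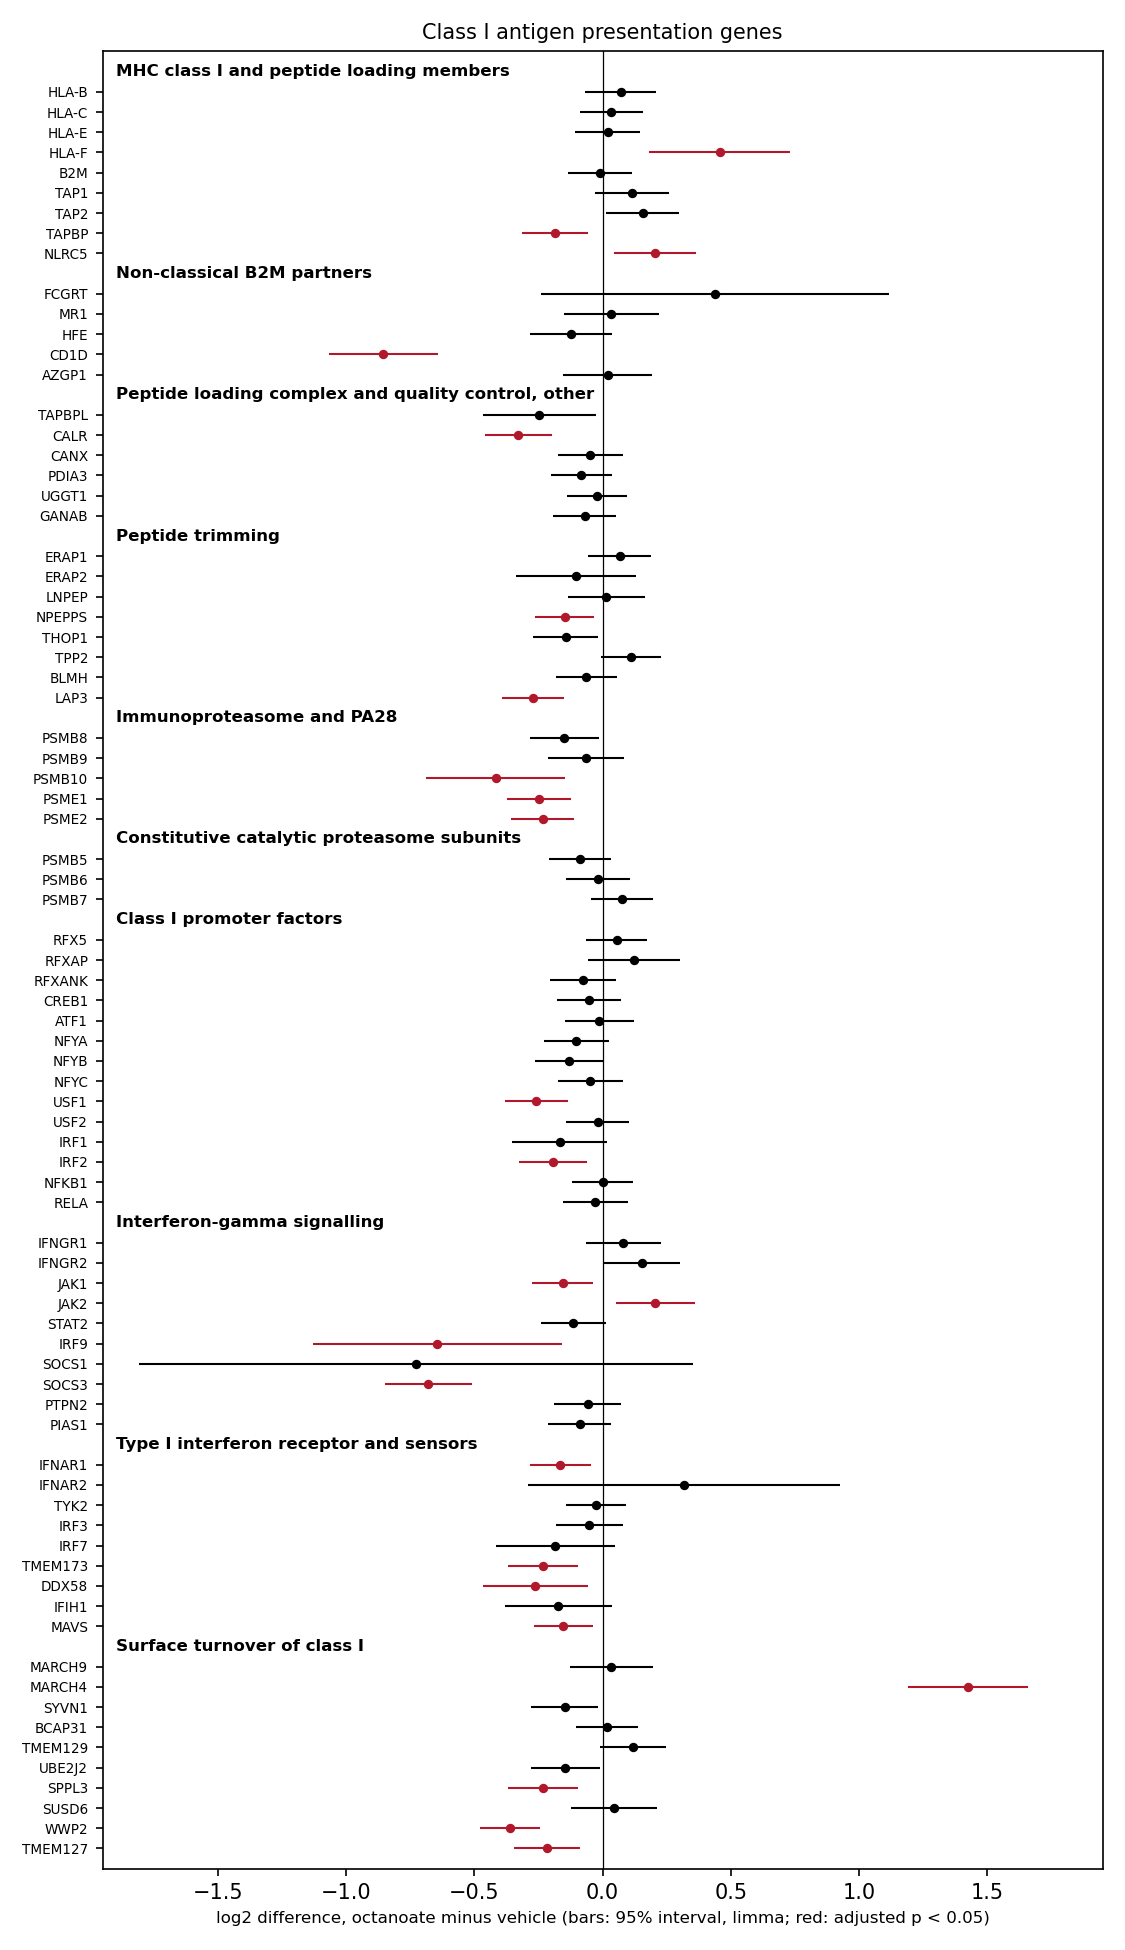
Log2 difference of octanoate minus vehicle (x axis) with its 95% limma interval for the tested genes of the class I lists that are reported here (y axis, grouped by role); red marks a limma adjusted p under 0.05. MARCH4 lies farthest right at 1.43 and CD1D farthest left among called genes at -0.86, while 6 of the 9 class I and loading genes at the top are black.

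Many calls, not only those for small differences, depended on the variance prior and on the filter. Of the 33 genes that the naming rule selected, 21 were called, and 2 of these (CD1D and MARCH4) remained called without an intensity trend in the variance prior. With no filter on low counts 5 remained (CD1D, CALR, SOCS3, MARCH4 and WWP2). HLA-F, TAPBP and NLRC5 were called in neither fit. With TMM scaling TAPBP, NPEPPS, IFNAR1 and MAVS were lost, and with DESeq2 on the recovered reads HLA-F, NLRC5, PSMB10, JAK2 and IRF9.

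Over the 4 libraries, the genes whose centred log2 profile was nearest to the median profile of the 9 were NDUFB4, JMJD6, C9orf85, RPL12 and MPP1, at Euclidean distances of 0.0100 to 0.0136 among 13473 genes averaging 100 or more. None of these 5 was called, with limma adjusted p from 0.463 to 0.567.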

How the data were processed

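RNA-seq of 4 libraries (2 per group) was analysed. The deposited table holds a signal per gene, which per the file headers and name is a count divided by 1 size factor per library. The submitters' processing notes name bcl2fastq 2.17, Trim Galore, STAR 2.4, Picard, HTSeq 0.9.1, DESeq2 and build hg38; the annotation and use of strand are not given in the sources used here. All positive values (100%) were whole multiples, within a relative tolerance of 1e-04, of the library's smallest, so reads were recovered. The authors' deposited comparison gives log2 fold changes, a test score and p-values. Those printed were copied.

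limma 3.58.1 in R 4.3.3 was fitted on log2(value + 1) with an intensity trend to genes with a mean of at least 10, with two-sided Benjamini-Hochberg tests. edgeR 4.0.16 and DESeq2 1.42.0 were run on recovered reads, as alternatives to this fit. In simulated counts for 19923 genes, 61 were given a log2 change of 0.5, 70 one of 1 and 62 one of 2. Of these, limma found 65.6%, 72.9% and 100%, and 3.77% of its 159 calls were false. In the data 6048 genes were called, with a median absolute log2 difference of 0.38. The simulated setting was thus unlike the data, and its false share does not carry over to these calls. Positions, lengths and overlaps came from GENCODE 29, promoters from RefSeq, and shared sequence from blastn 2.17.0 (at least 95% identity over 100 bases).

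The genes, lists and tests were chosen with earlier results of these data known. Besides the 9 genes, the rule named from each list up to 3 called genes with the smallest adjusted p, and every gene with a mean of at least 10 in lists of 5 or fewer. Other genes printed were chosen after their values were seen. The lists hold 2 genes that enter the counts but are not reported here.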

Additional observations from a re-analysis of the deposited data

How the results depend on the processing

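The number of genes called, 6048, was 2595 with no filter and 1625 without an intensity trend, and with either setting 0 of the 9 class I and loading genes were called higher and 0 lower. With TMM factors 0 were called lower, because TAPBP had an adjusted p of 0.0523. DESeq2 on the recovered reads called 0 higher. Leaving out 1 library gave 4295 to 4757 called genes, 0 to 2 of the 9 higher, 0 to 1 lower, and a median log2 difference of the 9 from -0.023 to 0.18, the lower end without vehicle 2 and the upper end without vehicle 1. With a pseudocount of 0.5 or 5, a minimum mean of 50, equal column totals or edgeR, the same 3 genes (HLA-F, NLRC5 and TAPBP) were called. With the replicate number as a replicate block, 8376 genes were called and 3 of the 9 were higher, TAP2 joining with an adjusted p of 0.0170. The labels do not say what the numbers mark, there are only 2 pairs, and deviations of same-numbered libraries had a correlation of 0.126 across genes. The cause of these shifts was not tested. HLA-F, with 167 to 243 reads per library the least counted of the 9, had a standard error of 0.13 against 0.06 for B2M, and also the largest gap of the 9 between the vehicle libraries (0.28 on the log2 scale).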
